A study of Mus musculus with 6 samples.

Results

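The LDL receptor family members Vldlr, Lrp1, Lrp2, Lrp4, Lrp8 and Sorl1, together with their chaperone Lrpap1, were taken by gene symbol from a table of read counts with 39017 Ensembl mouse genes. All 7 were in the table, and 6 had enough reads to be tested. The RNA came from ribosomes pulled down with an anti-HA antibody from the corpus callosum, the white matter tract between the hemispheres. The first group were C57BL/6 mice fed a diet with 0.2% cuprizone, a copper chelator that kills oligodendrocytes, with libraries 30, 31 and 32. The second were C57BL/6 mice labelled as vehicle or control, with libraries 24, 26 and 27. All mice carried RiboTag, an HA-tagged ribosomal protein RPL22, switched on by Cre under the Olig1 promoter. The treatment description covers females of 8 to 10 weeks, 6 or 9 weeks of cuprizone and 3 weeks of recovery on control diet, and does not say at which of these points a library was taken. Nor does it say whether each library came from 1 animal, so p-values measure the spread between these libraries. The title names cholesterol homeostasis in oligodendrocytes, and the question here is whether transcripts of lipoprotein receptors differed between the diets.

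The libraries held 18549360 to 22381307 counts. In the cuprizone libraries all 10 mature oligodendrocyte markers fell (median log2 fold change -3.08), while Rpl22, which carries the tag, averaged 76.4 ± 9.97 CPM under cuprizone and 70.4 ± 7.14 CPM in control (SD, n = 3 each). Olig1, whose promoter drives Cre, fell by 1.12 on the log2 scale (adjusted p = 0.0334, edgeR quasi-likelihood test). Olig1 is active throughout the oligodendrocyte lineage, progenitors included, and markers of neurons, astrocytes and microglia were also counted in every library. Library 32 was unlike the other cuprizone libraries: its counts differed from those of 30 and 31 by 85.1 and 101 chi-square units per degree of freedom, where 30 and 31 differed by 26.6. CPM are counts scaled to library size (1e6 counts), with sizes scaled by edgeR's trimmed mean (TMM). RPKM are the same per kilobase of exonic length, the scale used to compare genes with each other.

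Receptors of this family sit in the cell membrane, bind lipoproteins and other ligands through cysteine-rich repeats and carry them into endosomes, where acid releases the cargo. Some also signal: Reelin, a large secreted protein, binds the products of Vldlr and Lrp8 and sets off phosphorylation of the adaptor DAB1. Lrpap1 encodes a chaperone of the endoplasmic reticulum that keeps newly made receptors from binding ligand too early. In white matter, lipoproteins carrying apolipoprotein E bring cholesterol to cells and take it away, and these receptors are among their ways in.

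Promoter windows from RefSeq (GRCm38.p6) were found for 6 of the 7 members. They run from 250 bases before to 50 after an annotated start. The windows of Vldlr, the member with the smallest p, and of Lrpap1, the member with the steadiest level, are shown 5′ to 3′ on the gene's strand. Capitals mark a GC box (GGGCGG) or a CCAAT box (CCAAT) on either strand. The E box (CACGTG), the CRE (TGACGTCA), the sterol regulatory element and the TATA box (TATAAA) were searched too and are in none of the 3 windows.
Vldlr, upstream start, chr19:27216234-27216533, plus strand: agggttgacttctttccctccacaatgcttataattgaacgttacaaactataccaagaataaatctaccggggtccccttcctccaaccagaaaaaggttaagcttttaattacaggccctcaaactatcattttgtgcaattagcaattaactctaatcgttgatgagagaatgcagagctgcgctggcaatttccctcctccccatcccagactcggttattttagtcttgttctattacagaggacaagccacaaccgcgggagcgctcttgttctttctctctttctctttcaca
Vldlr, downstream start, chr19:27216770-27217069, plus strand: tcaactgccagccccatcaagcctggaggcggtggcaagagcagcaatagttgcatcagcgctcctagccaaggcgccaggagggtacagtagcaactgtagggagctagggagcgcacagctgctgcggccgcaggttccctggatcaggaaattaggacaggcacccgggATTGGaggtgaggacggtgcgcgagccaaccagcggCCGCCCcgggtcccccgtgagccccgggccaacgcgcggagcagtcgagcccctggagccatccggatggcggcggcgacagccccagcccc
Lrpap1, chr5:35105650-35105949, minus strand: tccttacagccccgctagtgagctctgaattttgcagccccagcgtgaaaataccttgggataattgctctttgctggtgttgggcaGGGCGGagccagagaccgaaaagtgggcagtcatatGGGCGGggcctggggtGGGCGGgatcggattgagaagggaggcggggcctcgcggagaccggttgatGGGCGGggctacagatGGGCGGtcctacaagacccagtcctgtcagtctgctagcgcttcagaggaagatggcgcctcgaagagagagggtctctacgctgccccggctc
The upstream Vldlr window held none of these motifs and was 43% G and C, while the downstream one held 1 GC box and 1 CCAAT box at 68%. The Lrpap1 window held 5 GC boxes, which did not overlap, at 61.3%. Of 32851 RefSeq windows 35.7% held a GC box and 37.4% a CCAAT box, with a median of 52.7% G and C. These matches describe the letters only.

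No member of the family passed the test between cuprizone and control. With edgeR's quasi-likelihood test and Benjamini-Hochberg adjustment over 16569 genes, 0 of the 6 tested members was higher and 0 lower at an adjusted p under 0.05, where 1.87% of all genes tested were higher and 5.7% lower, or 7.57% in all. Vldlr and Lrp4 stood lowest against control and had an unadjusted p under 0.05, as did 23.3% of all genes. DESeq2, which called 5.21% of all genes higher and 8.46% lower (13.7% in all), called 1 member lower, Vldlr. The tool limma-voom, which called 1.77% higher and 5.87% lower (7.63% in all), called none. The groups did not overlap for 3 of 6 members, against 30.2% of all genes. Of these, Vldlr and Lrp4 were below every control library, as were 17.6% of all genes, and Lrpap1 was above every control library, as were 12.6%. The members' median log2 fold change was -0.03 and that of all genes tested 0.02. In RNA from a whole capture, fewer cells of a type and less RNA per cell cannot be told apart.

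**Figure D1:**
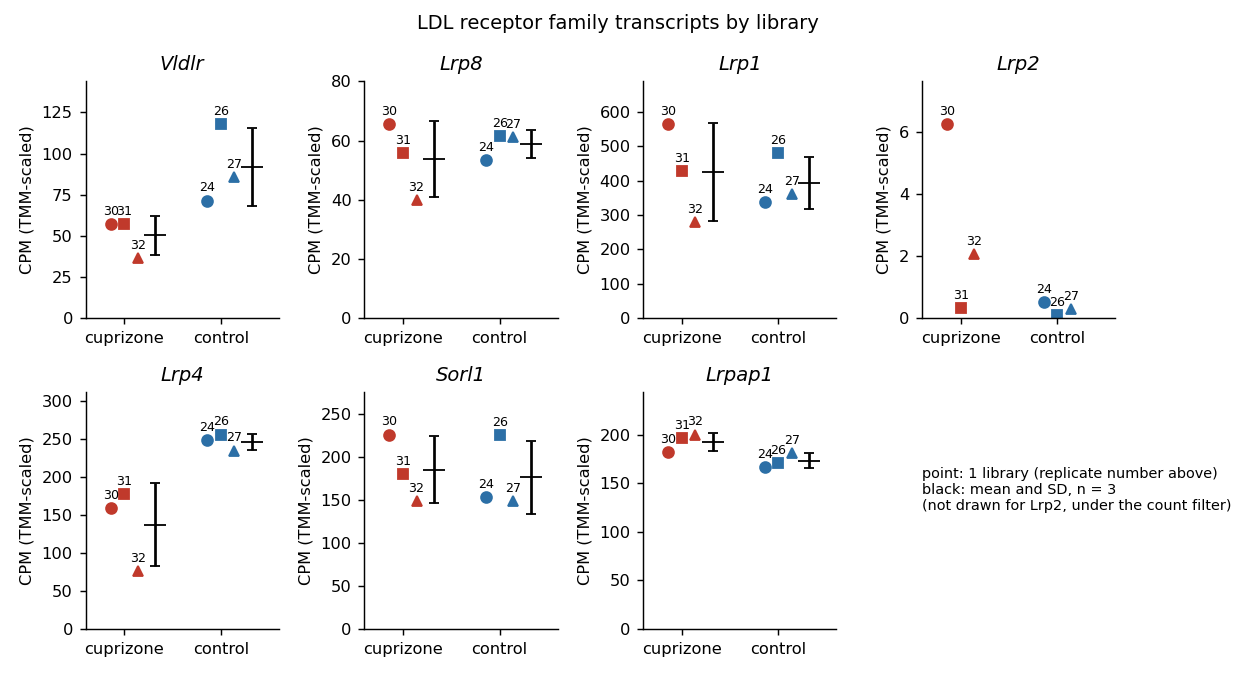
TMM-scaled CPM of the 7 members in each library, cuprizone left and control right, with replicate numbers above the points and the mean and SD (n = 3) in black. Vldlr and Lrp4 lie lower in all cuprizone libraries, Lrpap1 higher in all of them by a small step, and the other members overlap.

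Vldlr (ENSMUSG00000024924, chromosome 19, 27216484 to 27254231, plus strand, GRCm38) encodes the very low density lipoprotein receptor, which binds Reelin and lipoproteins rich in apolipoprotein E. It had 57.4, 57.1 and 36.5 CPM in cuprizone libraries 30, 31 and 32, against 71.5, 118 and 86.0 CPM in control libraries 24, 26 and 27. Every cuprizone library lay below every control library, with library 32 lowest of all. The means were 50.3 ± 12.0 CPM under cuprizone and 91.9 ± 23.9 CPM in control (SD, n = 3 each). The log2 fold change was -0.87 ± 0.24 (SE), with a 95% interval of -1.44 to -0.29 and an adjusted p of 0.0837 (edgeR), so the difference missed the threshold. DESeq2 gave an adjusted p of 0.0149. With edgeR and a single library left out the log2 fold change ran from -1.0 to -0.64 and the adjusted p from 0.0951 to 0.207.

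Lrp8 (ENSMUSG00000028613, chromosome 4, 107802261 to 107876840, plus strand) encodes apolipoprotein E receptor 2, the other Reelin receptor. Its levels were 65.7, 55.8 and 40.1 CPM in cuprizone libraries 30, 31 and 32, against 53.5, 61.7 and 61.3 CPM in control libraries 24, 26 and 27. The cuprizone libraries held both the highest and the lowest value. The log2 fold change was -0.13 ± 0.19 (95% interval -0.57 to 0.31, edgeR adjusted p = 0.728), and it was 0.05 without cuprizone library 32. Set against each other within a library, the RPKM ratio of Vldlr to Lrp8 was 0.913, 1.07 and 0.951 in the cuprizone libraries and 1.40, 2.0 and 1.47 in the control libraries. Vldlr thus exceeded Lrp8 per length in all 3 control libraries and in 1 of 3 cuprizone libraries.

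Lrp1 (ENSMUSG00000040249, chromosome 10, 127538161 to 127621148, minus strand) encodes a large endocytic receptor that clears lipoproteins, proteases with their inhibitors and myelin debris. Its levels were 565, 429 and 280 CPM in cuprizone libraries 30, 31 and 32, against 338, 480 and 360 CPM in control libraries 24, 26 and 27. The cuprizone values bracketed the control values, and the SD was 143 CPM under cuprizone and 76.2 CPM in control. Between the groups the log2 fold change was 0.11 ± 0.28 (95% interval -0.54 to 0.77, edgeR adjusted p = 0.847). It was -0.15 without cuprizone library 30 and 0.34 without cuprizone library 32.

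Lrp2 (ENSMUSG00000027070, chromosome 2, 69424340 to 69586065, minus strand) encodes megalin, a receptor of absorptive epithelia and of the ependyma that also takes up Sonic hedgehog. It was rare: 139, 8 and 44 counts in cuprizone libraries 30, 31 and 32, against 9, 2 and 5 counts in control libraries 24, 26 and 27. Cuprizone libraries 30 and 32 lay above all controls and cuprizone library 31 within their range. In CPM, with exact 95% Poisson intervals that cover counting error only, these were 6.27 (5.27 to 7.40), 0.342 (0.148 to 0.674) and 2.08 (1.51 to 2.79) under cuprizone. The control libraries had 0.531 (0.243 to 1.01), 0.113 (0.0137 to 0.409) and 0.291 (0.0946 to 0.680) CPM. The gene did not pass the filter on low counts. With no filter edgeR put it at 3.21 on the log2 scale (adjusted p = 0.161). Without cuprizone library 31 it passed the filter and stood at 3.72 (adjusted p = 0.0284). Only cuprizone libraries 30 and 32, where it was high, carried it past that filter. The library left out was the cuprizone library within the control range, so that p-value is no support for a rise. The 8 ependyma markers summed to 163, 88.1 and 189 CPM in cuprizone libraries 30, 31 and 32 and to 157, 106 and 119 CPM in control libraries 24, 26 and 27. The 6 tested choroid plexus markers summed to 7.12, 18.7 and 21.04 CPM in the cuprizone libraries and to 16.6, 7.54 and 430 CPM in the control libraries. The 8 endothelium markers summed to 44.8, 21.6 and 70.15 CPM in the cuprizone libraries, against 23.5, 21.8 and 22.4 CPM in control. The 5 tested pericyte and smooth muscle markers summed to 80.2, 45.3 and 112.7 CPM under cuprizone, against 45.9, 40.6 and 46.3 CPM in control. The 3 tested fibroblast markers summed to 13.98, 20.3 and 44.25 CPM under cuprizone, against 14.97, 12.35 and 301.5 CPM in control. The part of any of these cell types in the Lrp2 counts was not tested.

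Lrp4 (ENSMUSG00000027253, chromosome 2, 91457511 to 91513779, plus strand) encodes the receptor for agrin at the neuromuscular junction, where it activates the kinase MuSK, and also dampens Wnt signalling. Its levels were 159, 178 and 75.9 CPM in cuprizone libraries 30, 31 and 32, against 249, 256 and 235 CPM in control libraries 24, 26 and 27. The control libraries were close to each other and every cuprizone library was lower, library 32 by far the lowest. The coefficient of variation was 39.4% under cuprizone and 4.33% in control. The log2 fold change was -0.84 ± 0.30 (95% interval -1.54 to -0.14), and the edgeR adjusted p of 0.146 missed the threshold. Without cuprizone library 32 the log2 fold change was smaller, at -0.55, and the adjusted p was 0.0291 (edgeR). DESeq2 on all 6 libraries gave an adjusted p of 0.0515.

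Sorl1 (ENSMUSG00000049313, chromosome 9, 41964720 to 42124297, minus strand) encodes a sorting receptor that joins lipoprotein receptor repeats to a VPS10P domain and returns cargo, such as the amyloid precursor protein, from endosomes to the Golgi. It had 226, 181 and 148 CPM in cuprizone libraries 30, 31 and 32, against 154, 225 and 149 CPM in control libraries 24, 26 and 27. The groups covered almost the same range. Cuprizone over control gave a log2 fold change of 0.07 ± 0.22 (95% interval -0.45 to 0.60, edgeR adjusted p = 0.882). The sign was not stable, at -0.10 without cuprizone library 30 and 0.29 without control library 26. A gene on the opposite strand, Gm16214, shares 185 exonic bases with Sorl1. It was counted at 51 to 93 reads in cuprizone libraries and 36 to 62 in control libraries, against 2561 to 5016 for Sorl1. How reads in the shared bases were counted was not tested.

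Lrpap1 (ENSMUSG00000029103, chromosome 5, 35091501 to 35105766, minus strand), the receptor chaperone, had 44.3, 47.6 and 48.6 RPKM in cuprizone libraries 30, 31 and 32, against 40.4, 41.6 and 44.0 RPKM in control libraries 24, 26 and 27. The highest control library and the lowest cuprizone library were nearly level. The means were 193 ± 9.35 CPM under cuprizone and 173 ± 7.69 CPM in control, with coefficients of variation of 4.85% and 4.45%. The log2 fold change was 0.16 ± 0.11 (95% interval -0.11 to 0.42, edgeR adjusted p = 0.454), the narrowest interval of the 6 members.

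**Figure D2:**
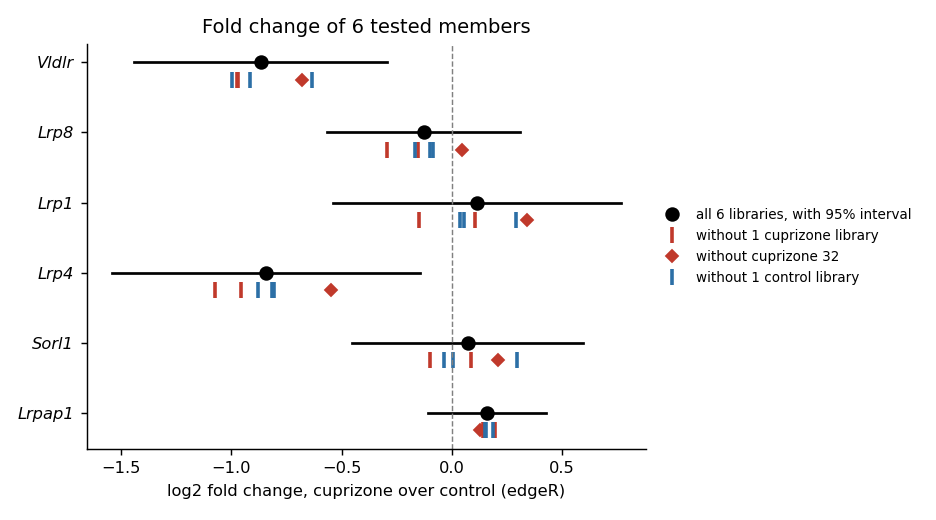
Log2 fold change of cuprizone over control for the 6 tested members, with 95% intervals in black and the values with a single library left out below each. The intervals of Vldlr and Lrp4 lie below 0 before adjustment over all genes, and those of Lrp8, Lrp1, Sorl1 and Lrpap1 cross it.

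Per exonic length, Lrpap1 stood highest in every library, at 46.8 ± 2.27 RPKM under cuprizone and 42.0 ± 1.87 RPKM in control (SD, n = 3 each). Under cuprizone it was followed by Lrp1 at 23.96 ± 8.07 RPKM, Sorl1 at 16.3 ± 3.46 RPKM, Lrp4 at 13.1 ± 5.17 RPKM, Lrp8 at 5.12 ± 1.23 RPKM and Vldlr at 4.999 ± 1.19 RPKM. In control the order after Lrpap1 was Lrp4 at 23.5 ± 1.02 RPKM, Lrp1 at 22.2 ± 4.30 RPKM, Sorl1 at 15.6 ± 3.76 RPKM, Vldlr at 9.12 ± 2.37 RPKM and Lrp8 at 5.60 ± 0.438 RPKM. Some neighbours overlapped in their ranges and changed places between libraries, each holding in 2 of 3: Sorl1 over Lrp4 and Lrp8 over Vldlr under cuprizone, and Lrp4 over Lrp1 in control. Lrp1 and Sorl1 also overlapped in their ranges, but Lrp1 was above Sorl1 within every library, by a ratio of 1.205 to 1.597 under cuprizone and 1.36 to 1.54 in control. Lrp2 lay far below all of them, at 0.0205 to 0.375 RPKM in the cuprizone libraries and 0.00679 to 0.0318 RPKM in the control libraries. Averaged over the 6 libraries, Lrpap1 exceeded 93.3% of the genes tested per length and Lrp8, the lowest tested member, 53.1%.

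**Figure D3:**
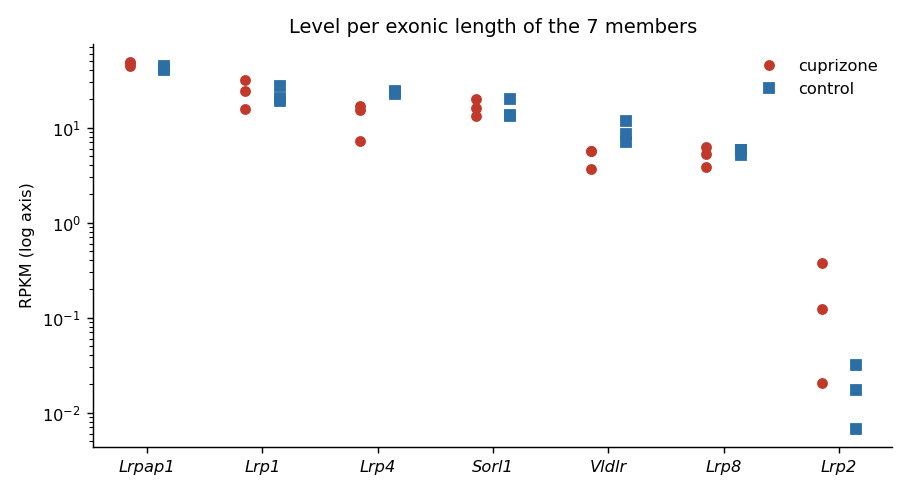
RPKM of the 7 members in each library on a log axis, cuprizone as red circles left of control as blue squares. Lrpap1 is highest throughout, and Lrp2 lies below 0.4 RPKM in all 6 libraries.

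Ratios between members within a library do not depend on how the libraries were scaled. Of the 15 pairs of tested members, 8 had ratios that did not overlap between the groups, against 31.7% of all pairs of tested genes with a count in every library. These were the pairs that set Vldlr or Lrp4 against Lrp1, Lrp8, Sorl1 or Lrpap1, so they restate the lower levels of the same 2 genes. The ratio of Lrp1 to Lrp4 was 2.11, 1.43 and 2.18 in cuprizone libraries 30, 31 and 32, against 0.807, 1.11 and 0.908 in control libraries 24, 26 and 27. Vldlr to Lrp1 was 0.179, 0.234 and 0.230 in the cuprizone libraries, against 0.372, 0.433 and 0.420 in the control libraries. The log2 ratio of Vldlr to Lrp1 differed by -0.94 between the group means, with SDs of 0.22 under cuprizone and 0.12 in control. Vldlr to Lrp4 overlapped, at 0.377, 0.335 and 0.501 in the cuprizone libraries and 0.3002, 0.481 and 0.382 in the control libraries. With 3 against 3 libraries the smallest p an exact 2-sided permutation test can give is 0.1, so that test cannot pass at 0.05 for any ratio.

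Values also differed between libraries of 1 group. Cuprizone library 32 had the lowest value of its group for Vldlr, Lrp1, Lrp4, Lrp8 and Sorl1 and the highest for Lrpap1. Control library 26 had the highest value of its group for the same 5 receptors. Relative to the control mean, log2 levels in cuprizone library 32 were -1.30 for Vldlr, -1.70 for Lrp4, -0.55 for Lrp8, -0.47 for Lrp1 and -0.22 for Sorl1. These receptors have over 10 kb of exonic sequence and Lrpap1 has 4116 bases. The 1295 genes with over 10 kb and at least 5 CPM had medians, on the same scale, of 0.08, -0.01 and -0.12 in cuprizone libraries 30, 31 and 32 and -0.08, 0.06 and 0.02 in control libraries 24, 26 and 27. With the trend on exonic length removed in each library, Vldlr had a log2 fold change of -0.86 (edgeR adjusted p = 0.0525) and Lrp4 one of -0.85 (adjusted p = 0.12).

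Cell type markers differed in library 32 as well. The 10 astrocyte markers, none at 0, summed to 22970, 26610 and 13620 CPM in cuprizone libraries 30, 31 and 32, against 22360, 20130 and 19710 CPM in control libraries 24, 26 and 27. Between the groups these markers went both ways, 5 of 10 with a positive log2 fold change, and none passed with edgeR. Gfap averaged 9483 CPM under cuprizone and 5995 CPM in control, Slc1a2 6798 and 9992 CPM, and S100b 509.5 and 840.4 CPM. The 7 markers of progenitors and newly formed oligodendrocytes summed to 1565, 2105 and 1215 CPM in the cuprizone libraries, against 2362, 1996 and 2101 CPM in the control libraries. Much of these sums was Bcas1, at 501, 1108 and 635 CPM in the cuprizone libraries and 1533, 902 and 1307 CPM in the control libraries. The groups overlapped for each of the 7 markers. The sum of the 10 neuron markers was highest in cuprizone library 32, with sums of 2566 to 5793 CPM under cuprizone and 2405 to 3338 CPM in control. Single markers did not all follow the sum. In cuprizone libraries 30, 31 and 32 Camk2a had 800, 703 and 2312 CPM, while Gad1 had 271, 131 and 100 CPM. The sum of the 10 microglia and macrophage markers was also highest in cuprizone library 32, with sums of 1495 to 3175 CPM under cuprizone and 1025 to 1876 CPM in control. P2ry12 followed it within the cuprizone group, at 29.5, 33.5 and 45.7 CPM in libraries 30, 31 and 32. Against control it did not, with 47.6 CPM in control library 27. Among the cuprizone libraries, the sums for endothelium, for pericytes and smooth muscle, and for fibroblasts were highest in library 32 (70.15, 112.7 and 44.25 CPM). The mature oligodendrocyte markers summed to 8161, 15030 and 8034 CPM under cuprizone, against 83130, 61390 and 74960 CPM in control. Their part in the values of Vldlr and Lrp4 was not tested.

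**Figure D4:**
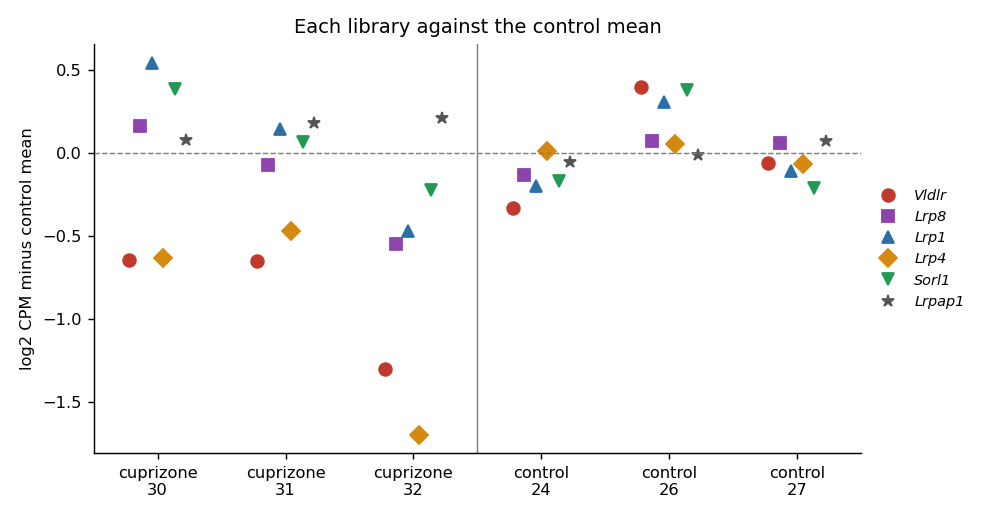
Log2 CPM of the 6 tested members in each library minus the mean of the 3 control libraries, with cuprizone libraries left of the vertical line. Vldlr and Lrp4 lie below 0 in all 3 cuprizone libraries, and library 32 is the lowest for all members but Lrpap1.

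Over 6 lists of genes that act with the receptors, 9 of 91 distinct tested genes passed (9.89%), against 7.57% of all genes. Of 13 tested relatives with LDL receptor class A or VPS10P domains 2 fell and none rose, where 5.7% and 1.87% of all genes did. Their median log2 fold change was -0.20. DESeq2 called 4 of the relatives lower and none higher, where it called 8.46% and 5.21% of all genes. With edgeR 4 had an unadjusted p under 0.05, as did 23.3% of all genes. Ldlrad4, a membrane protein that restrains transforming growth factor beta signalling, had 14.7, 12.4 and 20.95 CPM in cuprizone libraries 30, 31 and 32, against 45.9, 41.5 and 50.7 CPM in control libraries 24, 26 and 27. Its log2 fold change was -1.53 ± 0.21 (edgeR adjusted p = 0.00657), and it passed with each library left out. Sort1, which encodes the sorting receptor sortilin, averaged 390 ± 33.8 CPM under cuprizone and 640 ± 91.1 CPM in control (log2 fold change -0.71 ± 0.17, adjusted p = 0.0469). Its adjusted p was 0.0529 to 0.162 when any of the 6 libraries was left out, 0.0595 with upper-quartile scaling and 0.0631 with no filter. Sorcs1, another sorting receptor, and Ldlrad3 had log2 fold changes of -0.74 and -0.85 and missed the threshold, at 0.0758 and 0.0828 (edgeR adjusted p).

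Of 23 tested ligands 1 rose and 2 fell, where 1.87% and 5.7% of all genes did. A positive log2 fold change was found for 18 (78.3%), against 52.6% of all genes, and the median was 0.62, against 0.02. The list was chosen with earlier results of these data known, so these shares are no support for a rise of ligands. DESeq2 called 7 higher, where it called 5.21% of all genes higher. With edgeR 13 had an unadjusted p under 0.05, as did 23.3% of all genes. Apoc1, an apolipoprotein of lipid-rich particles, had 14.8, 14.6 and 43.4 CPM in cuprizone libraries 30, 31 and 32, against 5.60, 2.04 and 2.04 CPM in control libraries 24, 26 and 27. App, which encodes the amyloid precursor protein, a cargo of Sorl1 and Lrp1, fell to 1075 ± 87.7 CPM under cuprizone, against 2111 ± 338 CPM in control (log2 fold change -0.97 ± 0.19, edgeR adjusted p = 0.0273). Apod, a lipocalin of myelinating glia, fell to 558 ± 292 CPM under cuprizone, against 2126 ± 247 CPM in control (log2 fold change -1.93 ± 0.39, adjusted p = 0.0298). The adjusted p of App and of Apod was up to 0.117 without control library 24, 26 or 27 or cuprizone library 30, and that of Apoc1 up to 0.123 without control library 26 or 27 or cuprizone library 30. Thbs1, which encodes thrombospondin 1, missed the threshold at a log2 fold change of 1.32 (adjusted p = 0.0551). Reln, which encodes Reelin, ran from 233 to 844 counts under cuprizone and from 89 to 558 counts in control, and its log2 fold change of 0.62 ± 0.68 had an adjusted p of 0.634.

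Of 19 cytoplasmic adaptors 3 fell and none rose, where 5.7% and 1.87% of all genes did. Their median log2 fold change was -0.02. Mapk8ip1, a scaffold of the JNK kinases that binds the tail of the Lrp8 product, had 341, 427 and 464 CPM in cuprizone libraries 30, 31 and 32, against 1153, 1090 and 1107 CPM in control libraries 24, 26 and 27. The groups were far apart, with a log2 fold change of -1.44 ± 0.17 (edgeR adjusted p = 0.00418). It passed with each library left out. Apbb1, an adaptor of App and Lrp1 tails, had a log2 fold change of -0.76 (adjusted p = 0.0448). It missed the threshold with upper-quartile scaling (0.0601), with no filter (0.0502) and without any library except cuprizone 32 (up to 0.156). Pik3r1, a subunit of phosphoinositide 3-kinase, had one of -0.59 (adjusted p = 0.0972). Dab1, the Reelin adaptor, averaged 97.0 ± 13.7 CPM under cuprizone and 85.8 ± 9.85 CPM in control (adjusted p = 0.521). DESeq2 called 5 adaptors lower and 1 higher, where it called 8.46% and 5.21% of all genes.

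Of 21 chaperones, proteases and carriers of the receptors 1 fell and none rose, where 5.7% and 1.87% of all genes did. This was Aph1a, a subunit of the gamma-secretase that cuts receptor stubs in the membrane, with 10.1, 13.9 and 9.11 CPM in cuprizone libraries 30, 31 and 32, against 35.8, 35.4 and 27.1 CPM in control libraries 24, 26 and 27. Its log2 fold change was -1.57 ± 0.20 (edgeR adjusted p = 0.0051), and it passed with each library left out. Gga2, a sorting adaptor, had a log2 fold change of 0.55 (adjusted p = 0.106). The median of this list was -0.05. DESeq2 called 3 of its genes higher and 2 lower, where it called 5.21% and 8.46% of all genes.

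None of 8 tested partners of Lrp4 and none of 12 of Lrp2 passed with edgeR, which called 7.57% of all genes. The unadjusted p was under 0.05 for 1 and 0 of them, as for 23.3% of all genes. DESeq2, which called 13.7% of all genes, called 1 partner of Lrp4 lower and no partner of Lrp2. Dok7, which activates MuSK from inside the cell, had 20.6, 26.3 and 17.4 CPM in cuprizone libraries 30, 31 and 32, against 35.9, 30.5 and 40.5 CPM in control libraries 24, 26 and 27 (log2 fold change -0.73, edgeR adjusted p = 0.0602). Agrn, which encodes agrin, averaged 74.7 ± 15.3 CPM under cuprizone and 64.7 ± 9.52 CPM in control (adjusted p = 0.538). The Wnt co-receptors Lrp5 and Lrp6 had log2 fold changes of 0.17 and -0.26 (adjusted p of 0.43 and 0.421). Among the partners of Lrp2, Bmp4, Rbp4 and Gipc1 stood at 0.27, -0.54 and -0.10 on the log2 scale (adjusted p of 0.399, 0.428 and 0.661). The choroid plexus genes Sostdc1 and Ttr differed by -3.23 and -3.78 on the log2 scale (adjusted p of 0.256 and 0.356), and both rest on control library 27. Without it they stood at 0.81 and 1.33 (adjusted p of 0.646 and 0.733).

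**Figure D5:**
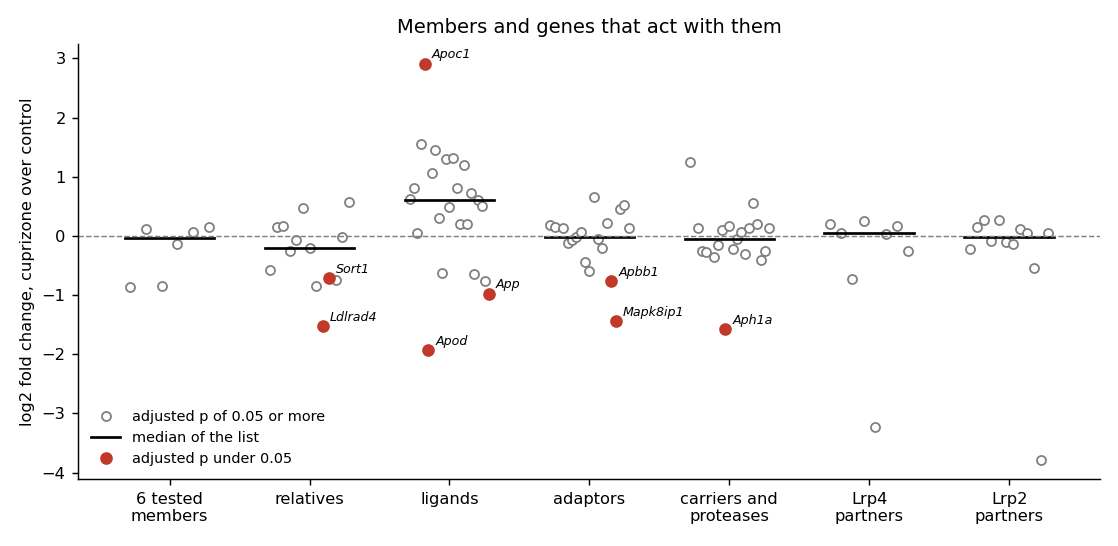
Log2 fold change of cuprizone over control by list, for the tested genes reported here, with called genes in red and the median of the whole list as a bar. No member is called, and of the 6 pathway lists the ligands have the highest median, 0.62. The lists were chosen with earlier results of these data known.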

How the data were processed

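The deposited file holds raw read counts per Ensembl gene for 6 libraries. Per the labels' protocols, pulled-down RNA was purified (Direct-zol) and made into libraries (Kapa). The tool bcl2fastq 2.17 and build mm10 are named per the submitters' processing notes. For aligner, counter, annotation and strand setting, the sources used here give no name. Symbols, spans and exonic lengths (union of exons, for RPKM) came from GENCODE M21 (GRCm38), which matched 37607 of 39017 identifiers.

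Cuprizone was compared with control in R 4.3.3 with edgeR 4.0.16: filterByExpr (minimum count 10, minimum total 15), TMM factors, glmQLFit with robust estimation and glmQLFTest, 2-sided, adjusted over 16569 genes, threshold 0.05. Standard errors are the log2 fold change over the root of F. The alternatives tried were scaling by upper quartile or RLE, TMM without myelin markers and the 20 most abundant genes, 2 other filters, DESeq2 1.42.0, limma-voom (limma 3.58.1) and leaving out each library. Removal of a trend on exonic length was added after seeing the data. The procedure was tested on simulated counts. The members and lists were chosen with earlier results of these data known. Of each pathway list the 4 genes with the smallest adjusted p are named, except some that are not reported here and stay in every test and count; Reln, Agrn, Dab1, Lrp8os2 and Gm16214 were named after their values were seen. Marker lists are given as sums.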

Additional observations from a re-analysis of the deposited data

How the results depend on the processing

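Leaving out 1 library at a time gave 65 to 464 genes higher and 474 to 963 lower, 0 to 1 members higher and 0 to 1 lower. The member called higher was Lrp2, which passed the filter and the test without cuprizone replicate 31. It passed that filter only through cuprizone replicates 30 and 32, where it was high, so the call is no support for a rise. The member called lower was Lrp4, without cuprizone replicate 32. Over these fits the log2 fold change ran from -1.0 to -0.64 for Vldlr, -1.07 to -0.55 for Lrp4, -0.30 to 0.05 for Lrp8, -0.15 to 0.34 for Lrp1, -0.10 to 0.29 for Sorl1 and 0.13 to 0.20 for Lrpap1. The sign turned for Lrp8 without cuprizone replicate 32 (0.0452), for Lrp1 without cuprizone replicate 30 (-0.15) and for Sorl1 without control replicate 27 (-0.04) or cuprizone replicate 30 (-0.10). DESeq2 called 862 genes higher and 1400 lower, against 310 and 945 with edgeR, and 1 member lower, Vldlr (-0.86). The cause was not tested. Under the scaling, filter, limma-voom and length alternatives no tested member was called or changed sign. No paired analysis was possible because the groups share no replicate number. Of the pathway list counts above 0, relatives lower moved by over 1.5 times in 8 of 14 alternatives, ligands higher in 9, ligands lower in 4, and adaptors lower and carriers and proteases lower in 1 each. Depth limits Lrp2 most, with 2 to 9 counts in a control library.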

Other observations

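Lrp8os2, a non-coding gene annotated on the strand opposite Lrp8 with no exonic base in common with it, had 61, 38 and 103 counts in cuprizone libraries 30, 31 and 32, against 16, 20 and 25 counts in control libraries 24, 26 and 27. Every cuprizone library was above every control library, as for 12.6% of all genes tested. The log2 fold change was 1.38 ± 0.44 and the edgeR adjusted p of 0.114 missed the threshold.

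Control library 27 held 430 CPM of the tested choroid plexus markers, against 7.54 to 16.6 CPM in the other control libraries. Lrp2 had 9, 2 and 5 counts in control libraries 24, 26 and 27. The part of choroid plexus in the Lrp2 counts was not tested.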
